A study of Sus scrofa with 4 samples.

Results

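The insulin-like growth factor (IGF) system of the liver was described through its growth factors, its binding proteins and the growth hormone receptor. The members were IGFBP1 to IGFBP6, IGF1, IGF2, IGFALS and GHR, chosen by gene symbol, and every probe set that the array's annotation gives to a member was read. Of the 10 genes, 8 have a probe set with that symbol, with 25 probe sets among the 23999 that were tested, and IGFBP3 and IGFBP4 were not analysed here. Liver RNA came from male crossbred pigs, (German Landrace x Large White) x Pietrain, at 7 weeks of age. The carnitine group received a basal diet with 500 mg/kg of added L-carnitine for 21 days, and the control group received the basal diet, low in native carnitine, for the same time. Livers were taken 2.5 h after the last meal, so that all values are from fed animals. Each pool held the RNA of 4 pigs, and 2 pools per diet were hybridized to single-colour Affymetrix porcine GeneChips, with 1 array per pool.

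IGF1 and IGF2 are secreted peptides that act on growth and metabolism, and the liver is the main source of circulating IGF1. Growth hormone, bound by its receptor GHR on hepatocytes, drives the expression of IGF1 and of IGFALS, the acid-labile subunit that holds IGFs in a long-lived complex with IGFBP3 or IGFBP5. The binding proteins carry IGFs in blood and tissue and limit their access to the IGF1 receptor. IGFBP1 and IGFBP2 are known as products of hepatocytes, and transcription of IGFBP1 is known to be repressed by insulin and raised by fasting. The comparison of the diets asks which of these transcripts differ in the liver when the diet holds added carnitine.

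The arrays shared a trimmed mean of signal of 500.1, and their median signals were between 109 and 114. All 8 hepatocyte markers (ALB, TTR, APOA1, SERPINA1, TF, FGB, AHSG and TAT) had mean signals above the median of all probe sets. All 8 had a log2 fold change below 0 (51.4% of all probe sets), with a median of -0.13. In 4 of them the carnitine pools were lower without overlap (20.4% of all probe sets). Control pool 2 had high signals for some markers of other liver cells. The summed signal of 8 stellate cell and fibroblast genes was 4275 and 4124 with carnitine, against 3240 in control pool 1 and 10361 in control pool 2, of which ACTA2 gave 5533. The sum of 5 cholangiocyte genes was 1769 and 1311 with carnitine, against 1240 in control pool 1 and 7364 in control pool 2, of which SPP1 gave 6231. For 7 endothelial genes the sum was 2942 and 1883 with carnitine, against 1989 in control pool 1 and 4113 in control pool 2. Sums of Kupffer cell, T and NK cell and B cell genes were not highest in control pool 2. For 4 red cell genes the sum was 1267 and 781 with carnitine, against 1534 and 2162 in control, and 3 of the 4 were lower without overlap. Quotients of 3' over 5' probe set signals reflect how intact the RNA and how complete the labelling was. For GAPDH the quotient came to 18.7 and 16.1 with carnitine, against 12.5 and 11.6 in control. A second GAPDH quotient was 43.1 and 22.9 with carnitine, against 20.1 and 19.4 in control. That of actin was 157 and 136 with carnitine, against 91.2 and 86.7 in control. Each was higher in both carnitine arrays than in both control arrays. On all 4 arrays the quotients were at least 11.6, so that the 3' probe sets were far brighter than the 5' ones in both diets. The part of these markers and of these quotients in the differences below was not tested. Values are MAS5 signals, a fold change is taken from the mean log2 signals of carnitine minus control, and standard errors and p-values are from limma fitted over all 23999 probe sets with Benjamini-Hochberg adjustment. Pools are the only replicates, and in tissue RNA fewer cells of a type and less RNA per cell cannot be told apart.

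IGFBP1 had the widest difference of the system and was lower with carnitine in every pool. The probe set Ssc.451.1.A1_at had signals of 1761 and 927 with carnitine, against 7010 and 7769 in control. The groups did not overlap, and the carnitine pools differed more from each other than the control pools did (by 1.90-fold and by 1.11-fold). The mean signal was 1344 ± 590 (SD, n = 2 pools) in the carnitine group and 7390 ± 537 (SD, n = 2 pools) in the control group. The log2 fold change was -2.53 (standard error 0.30, 95% interval -3.24 to -1.82), so that the signal was 5.78-fold lower with carnitine. Over the pairwise comparisons of a carnitine with a control pool, IGFBP1 was between 3.98-fold and 8.38-fold lower, and 1.63% of all probe sets were lower by 2-fold or more in all 4 such comparisons. The adjusted p was 0.174 from limma and did not pass 0.05. The unadjusted p of 6.01e-05 was the 6th smallest of the 23999. Of the 11999 probe sets above the median signal, 1 other had a log2 fold change lower than that of IGFBP1. The study chose IGFBP1 for its list of changed genes on these same samples. Leaving out 1 pool at a time gave log2 fold changes between -2.99 and -2.07.

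The other probe set of IGFBP1, Ssc.451.1.S1_at, carried little signal. It had 24.0 and 61.2 with carnitine, against 82.5 and 12.9 in control. The groups overlapped, and the control pools alone differed by 6.38-fold. Its log2 fold change was 0.23 with an interval from -2.05 to 2.51, and the value of the brighter probe set lies below this interval.

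**Figure D1:**
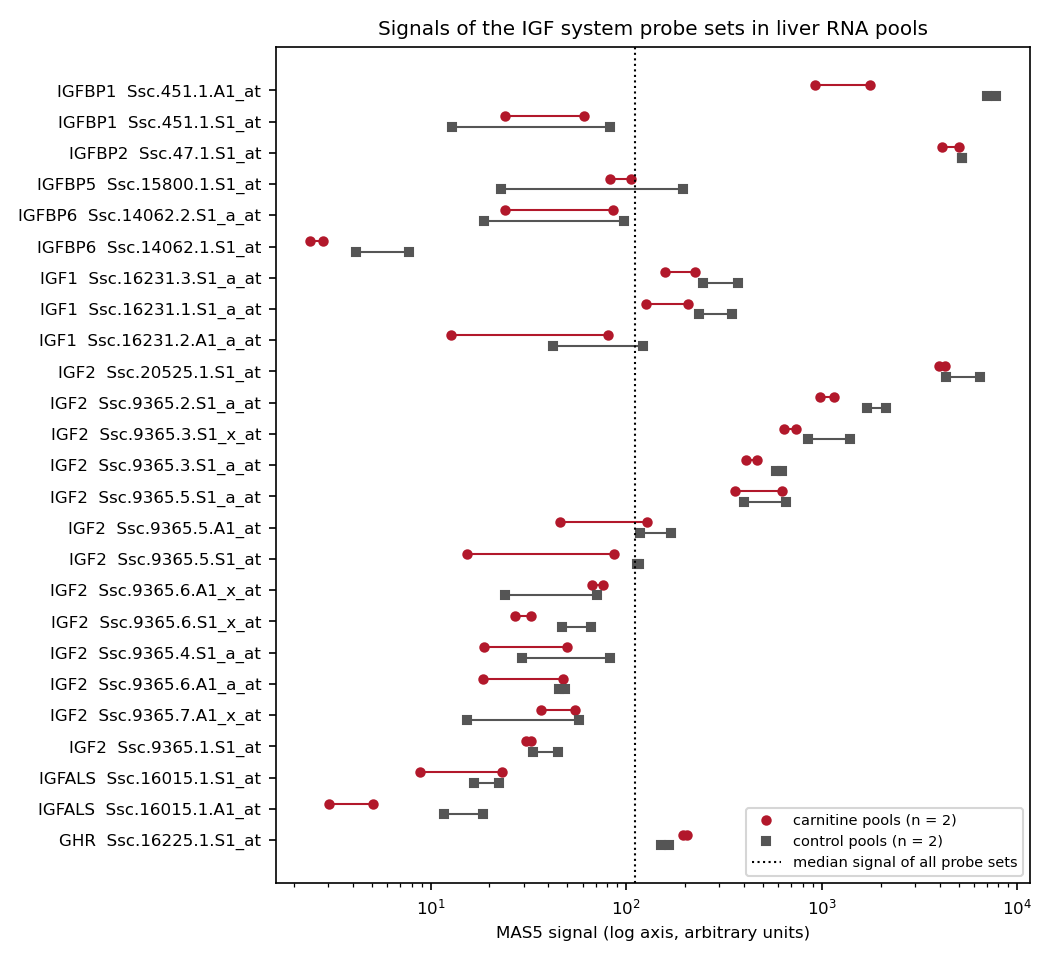
MAS5 signals of the 25 probe sets of the IGF system on a log axis, with red circles for the 2 carnitine pools, grey squares for the 2 control pools, a line between the values of each diet and a dotted line at the median signal of all probe sets (111). The carnitine pools of IGFBP1 (Ssc.451.1.A1_at) lie at 927 and 1761, left of its control pools, and most of the dim probe sets have overlapping pools.

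IGFBP2, the other binding protein with a bright signal, was nearly level between the diets. It had 5003 and 4117 with carnitine, against 5184 and 5189 in control. Both carnitine pools were lower, by a margin of at least 1.04-fold, and the control pools were almost equal. The log2 fold change was -0.19 (standard error 0.19, 95% interval -0.64 to 0.25, adjusted p = 0.817 from limma), and its interval lies above that of IGFBP1.

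IGFBP5 and IGFBP6, binding proteins that are known to be made largely by mesenchymal cells, gave dim signals with a wide spread between the control pools. IGFBP5 had 105 and 82.9 with carnitine, against 23.0 in control pool 1 and 195 in control pool 2. The carnitine pools lay between the control pools, and the log2 fold change of 0.48 (95% interval -1.67 to 2.63) turned to -1.06 when control pool 1 was left out, and was 2.02 when control pool 2 was left out. The brighter probe set of IGFBP6 had 23.9 and 85.4 with carnitine, against 18.8 in control pool 1 and 98.0 in control pool 2, with a log2 fold change of 0.08 (95% interval -2.15 to 2.30). In both genes control pool 2 was the highest of the 4 pools and control pool 1 the lowest. The same order held for 4 of the 8 stellate cell and fibroblast genes, among them LUM with 90.5 and 47.5 with carnitine, against 31.2 in control pool 1 and 437 in control pool 2. It did not hold for the others, and COL1A2 had 411 and 362 with carnitine, against 541 in control pool 1 and 345 in control pool 2. The part of the stromal share of these pools in the IGFBP5 and IGFBP6 values was not tested. The dimmer IGFBP6 probe set stayed between 2.42 and 7.80, and its log2 fold change of -1.12 has an interval from -3.54 to 1.29.

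Both growth factors had somewhat lower signals with carnitine, and none of their probe sets passed the adjusted p. IGF1 has 3 probe sets, of which 2 lay above the median signal of all probe sets. The brightest (Ssc.16231.3.S1_a_at) had 225 and 159 with carnitine, against 246 and 373 in control, and the next (Ssc.16231.1.S1_a_at) had 207 and 126 with carnitine, against 237 and 346 in control. In both, each carnitine pool was lower than each control pool. The log2 fold changes were -0.68 (standard error 0.34) and -0.83 (standard error 0.37), with adjusted p = 0.631 and 0.592 from limma. Leaving out 1 pool at a time gave values from -0.98 to -0.38 and from -1.19 to -0.46. The dimmest IGF1 probe set had 12.7 and 80.4 with carnitine, against 42.5 and 121 in control, with overlap.

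IGF2 is covered by 13 probe sets, and 5 of these lay above the median signal. All 5 had a log2 fold change below 0, between -0.83 and -0.11, beside 51.2% of all probe sets above the median signal. In 4 of them the carnitine pools were lower without overlap, beside 22.0% of all probe sets above the median signal. The brightest, Ssc.20525.1.S1_at, had 4278 and 3996 with carnitine, against 6428 and 4325 in control. Here the higher carnitine pool and the lower control pool were almost equal. The log2 fold change of -0.35 (standard error 0.23, 95% interval -0.90 to 0.20) was -0.065 when control pool 1 was left out and -0.64 when control pool 2 was left out. The widest gap among the 5 was that of Ssc.9365.2.S1_a_at, at 1156 and 984 with carnitine, against 1704 and 2118 in control. That is a log2 fold change of -0.83 ± 0.21 (SE, 95% interval -1.33 to -0.34, adjusted p = 0.399 from limma, unadjusted p = 0.00522). For Ssc.9365.3.S1_x_at the signals were 743 and 644 with carnitine, against 852 and 1396 in control (log2 fold change -0.66, unadjusted p = 0.0485). Among the 5, Ssc.9365.5.S1_a_at was the one with overlap, at 361 and 625 with carnitine, against 401 and 660 in control. Its direction turned without carnitine pool 1 (0.28) or without control pool 2 (0.24), unlike that of Ssc.9365.2.S1_a_at and Ssc.9365.3.S1_x_at. Of the 5, these 2 reached an unadjusted limma p under 0.05, and 5.24% of all probe sets above the median signal were lower at this p. Leaving out 1 pool at a time gave log2 fold changes from -0.99 to -0.68 for Ssc.9365.2.S1_a_at. For Ssc.9365.3.S1_x_at they ran from -1.01 to -0.30. The other 8 IGF2 probe sets had signals between 15.4 and 171 and log2 fold changes between -1.65 and 0.78. Probe sets of the same gene read overlapping transcripts, and those with x in their suffix hold probes that also match other sequences, so that the 13 are not independent measurements.

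The growth hormone arm was weakly represented. GHR, with a single probe set, had 204 and 195 with carnitine, against 165 and 151 in control. Of the 25 probe sets it was the only one whose carnitine pools both lay above both control pools, and the difference was small (log2 fold change 0.33 ± 0.30 SE, 95% interval -0.37 to 1.04, adjusted p = 0.797 from limma). The brighter probe set of IGFALS had 8.85 and 23.2 with carnitine, against 16.7 and 22.5 in control. The other had 5.09 and 3.03 with carnitine, against 11.8 and 18.6 in control, with a log2 fold change of -1.91 (95% interval -4.04 to 0.22). All these IGFALS signals were below the 25th percentile of signal of their array, which lay between 24.6 and 27.2, so that a level of this transcript could not be read with confidence.

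**Figure D2:**
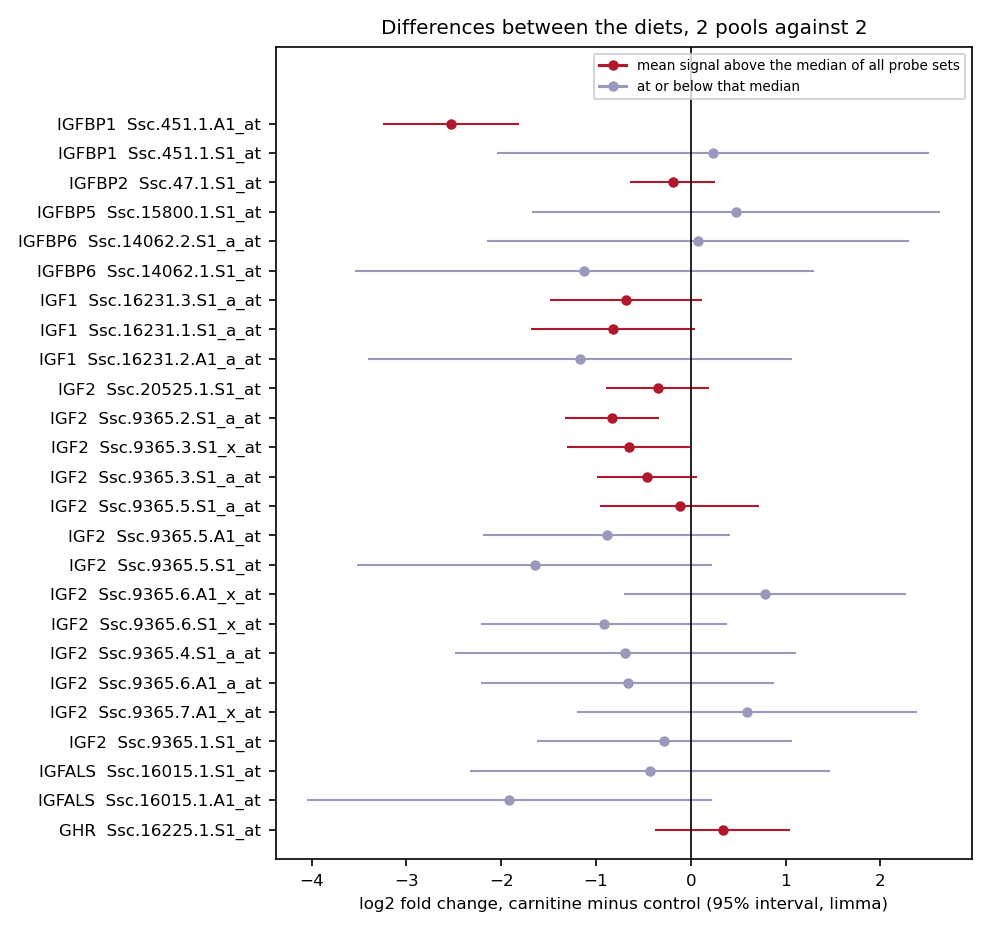
Log2 fold change of carnitine minus control for the 25 probe sets, with 95% intervals from limma, in red where the mean signal lies above the median of all probe sets and in blue-grey otherwise. The interval of the bright IGFBP1 probe set (-3.24 to -1.82) lies apart from 0 and from that of IGFBP2 (-0.64 to 0.25), and the dim probe sets have wide intervals.

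Counted together, 0 of the 25 probe sets passed the adjusted p in limma (1 of all, 0.00417%), and 3 reached an unadjusted p under 0.05. All 3 were lower with carnitine, namely IGFBP1 and the IGF2 probe sets Ssc.9365.2.S1_a_at and Ssc.9365.3.S1_x_at, beside 3.93% of all probe sets in that direction, and 0 were higher, beside 4.72%. In either direction 8.65% of all probe sets reached this p. With a pool left out, the number at an unadjusted p was 5 when carnitine pool 1 was dropped (5.87% of all probe sets), 2 for carnitine pool 2 (4.10%), 6 for control pool 1 (12.3%) and 5 for control pool 2 (12.5%). All of these were lower with carnitine, except 2 higher among the 5 for control pool 2. Differences of 2-fold or more were seen in 5 probe sets, all lower with carnitine, beside 7.92% of all probe sets lower, 8.03% higher and 16.0% in either direction. IGFBP1 was the only one of the 5 above the median signal. The other 4 were among the 15 dim member probe sets, and in the dim part of the array 28.2% of all probe sets differed by 2-fold or more in either direction. A log2 fold change below 0 was found for 19 of the 25, beside 51.4% of all. The pools did not overlap in 13 lower and 1 higher probe sets, beside 20.4% and 19.2% of all probe sets. Taking the brightest probe set of each gene, IGFBP1, IGFBP2, IGF1 and IGF2 were lower and GHR was higher without overlap, while the pools of IGFBP5, IGFBP6 and IGFALS overlapped. Of the 25, 10 had a mean signal above the median, in 5 genes, and counts over these are a description. Among the 10, 9 had a log2 fold change below 0 (51.2% of all probe sets above the median), 3 were lower at an unadjusted p (5.24%), 1 was lower by 2-fold or more (1.53%) and 8 were lower without overlap (22.0%). The median log2 fold change of the 25 was -0.66, against -0.02 over all probe sets, but 13 of them belong to IGF2.

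For the relative abundance of the binding proteins the signals can only be set side by side, since each probe set has its own probes. IGFBP2 lay between the 96.2 and 97.0 percentile of signal on the 4 arrays. IGFBP1 lay between the 83.4 and 98.0 percentile, with the carnitine pools at the low end. IGFBP5 ranged from the 23.1 to the 59.0 percentile, and IGFBP6 from the 20.3 to the 47.4 percentile. The limit of this ordering is shown by the probe sets of single genes, whose mean signals differed by 86.7-fold for IGFBP1 and by 133-fold for IGF2 from the brightest to the dimmest. The order of the signals is therefore not an order of transcript numbers.

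The difference in IGFBP1 was also taken relative to the other members on the same array, where the scaling of the arrays cancels. Within an array, the ratio of the IGFBP1 to the IGFBP2 signal was 0.352 and 0.225 with carnitine, against 1.35 and 1.50 in control. On the log2 scale the difference between the diets in this ratio was -2.34. The ratio to IGF1 was 7.84 and 5.84 with carnitine, against 28.5 and 20.8 in control, and the ratio to GHR was 8.65 and 4.75 with carnitine, against 42.4 and 51.3 in control. For IGFBP2, IGF2, IGF1 and GHR, the other genes with a mean signal above the median, the difference in log2 ratio lay between -2.86 (GHR) and -1.85 (IGF1), and the pools of the diets did not overlap. Each gave an exact two-sided permutation p of 0.333, the smallest that 2 against 2 arrays allow. Ratios to IGFBP5, IGFBP6 and IGFALS were not read in this way, because their signals fell below the 25th percentile on at least 1 array. Of 4 ratios among the members other than IGFBP1, those of IGF1 to GHR and of IGF1 to IGFBP2 did not overlap between the diets (exact two-sided permutation p = 0.333 for each). Those of IGF2 to IGFBP2 and of IGF1 to IGF2 overlapped (exact two-sided permutation p = 1 for each). With 2 against 2 arrays this test cannot give a smaller p than 0.333, so that no conclusion is drawn from the count. The log2 ratios of IGF1 to GHR were 0.14 and -0.30 with carnitine, against 0.58 and 1.30 in control (exact two-sided permutation p = 0.333).

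**Figure D3:**
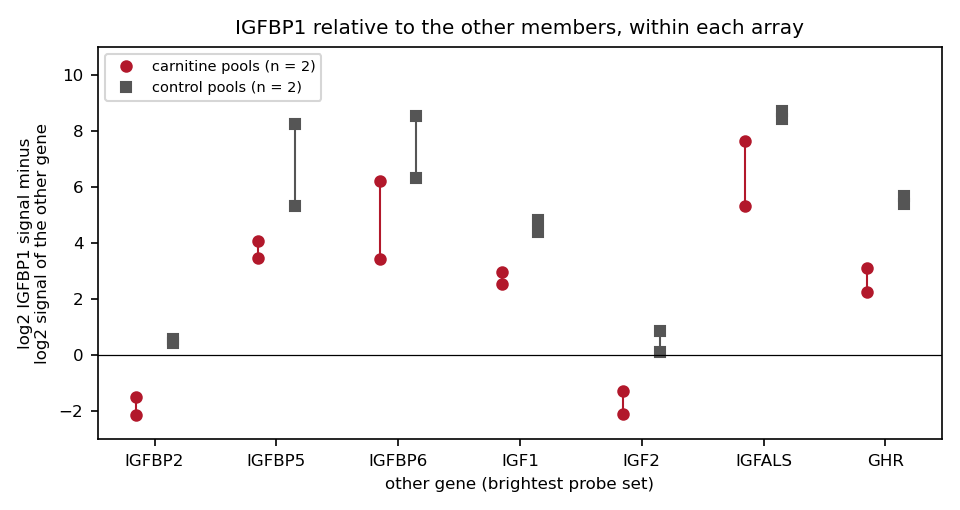
Log2 signal of IGFBP1 minus the log2 signal of another member on the same array (brightest probe set of each gene), with red circles for the 2 carnitine pools and grey squares for the 2 control pools. The heights of different genes are not comparable, and IGFBP5, IGFBP6 and IGFALS are dim. For IGFBP2 both carnitine pools lie below both control pools, with a mean difference of -2.34.

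Among the receptors and adaptors that carry the IGF and insulin signal, 9 of 14 listed genes were measured. At an unadjusted p, 1 was higher (4.72% of all probe sets) and 0 were lower (3.93%), 7 had a log2 fold change below 0 (51.4%), and the median was -0.15. IGF2R, the receptor that takes up IGF2 for breakdown, had 108 and 156 with carnitine, against 48.8 and 59.3 in control (limma log2 fold change 1.27 ± 0.43 SE with adjusted p = 0.480). Its mean signal lay below the median of all probe sets. With a pool left out, between 6 and 8 genes of the list had a log2 fold change below 0. IGF1R, the receptor through which both growth factors act, had 94.3 and 65.8 with carnitine, against 76.3 and 131 in control, with overlap.

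Of the growth hormone signal and its feedback inhibitors, 10 of 16 listed genes were measured, and at an unadjusted p 1 was higher (4.72% of all probe sets) and 0 were lower (3.93%), with a median log2 fold change of -0.05. SOCS1, an inhibitor of JAK kinases, had 221 and 147 with carnitine, against 71.4 and 110 in control (limma log2 fold change 1.02 ± 0.41 SE with adjusted p = 0.552). A log2 fold change below 0 was found for 6 of the 10 genes (51.4% of all probe sets), and for between 4 and 6 with a pool left out. STAT5B, the transcription factor that mediates the effect of growth hormone on IGF1, had 1110 and 1159 with carnitine, against 1226 and 1447 in control, a log2 fold change of -0.23 ± 0.20 (SE). JAK2, the kinase bound to GHR, had 249 and 192 with carnitine, against 225 and 193 in control.

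Proteases that cleave binding proteins, with their inhibitors, were measured for 11 of 15 listed genes, of which 3 were lower (3.93% of all probe sets) and 0 higher (4.72%) at an unadjusted p. PAPPA, the metalloproteinase known to cleave IGFBP4, had 83.9 and 114 with carnitine, against 230 and 161 in control (limma log2 fold change -0.98 ± 0.37 SE with adjusted p = 0.533). ADAM28, a membrane metalloproteinase, had 50.2 and 17.2 with carnitine, against 93.4 and 162 in control. The mean signal of ADAM28 lay below the median of all probe sets, and its carnitine pool 2 lay below the 25th percentile of that array. MMP1, a collagenase, had 0.703 and 1.20 with carnitine, against 14.8 and 19.3 in control, all below the 25th percentile of their array. A log2 fold change below 0 was found for 7 of the 11 genes (51.4% of all probe sets), and for between 7 and 10 with a pool left out. PLG, the plasminogen of hepatocytes, was bright at 19218 and 18796 with carnitine, against 22948 and 20683 in control (log2 fold change -0.20). Of the 12 IGFBP-related and IGF2 mRNA-binding proteins 1 was measured, the matricellular protein CYR61 (log2 fold change -0.07).

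Transcription factors known to act on the IGFBP1 promoter were measured for 13 of 18 listed genes, and at an unadjusted p 2 were higher (4.72% of all probe sets) and 0 were lower (3.93%), with a median log2 fold change of 0.02. FOXA1, a forkhead factor of hepatocytes, had 826 and 1306 with carnitine, against 632 and 387 in control (limma log2 fold change 1.07 ± 0.33 SE with adjusted p = 0.446). CEBPA had 414 and 516 with carnitine, against 215 and 301 in control (limma log2 fold change 0.86 ± 0.28 SE with adjusted p = 0.469). A log2 fold change below 0 was found for 6 of the 13 genes (51.4% of all probe sets), and for between 5 and 8 with a pool left out. FOXO1, the forkhead factor that insulin excludes from the nucleus and that is also among the insulin-repressed genes, had 737 and 626 with carnitine, against 866 and 1027 in control, a log2 fold change of -0.47 ± 0.22 (SE, adjusted p = 0.605 from limma).

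**Figure D4:**
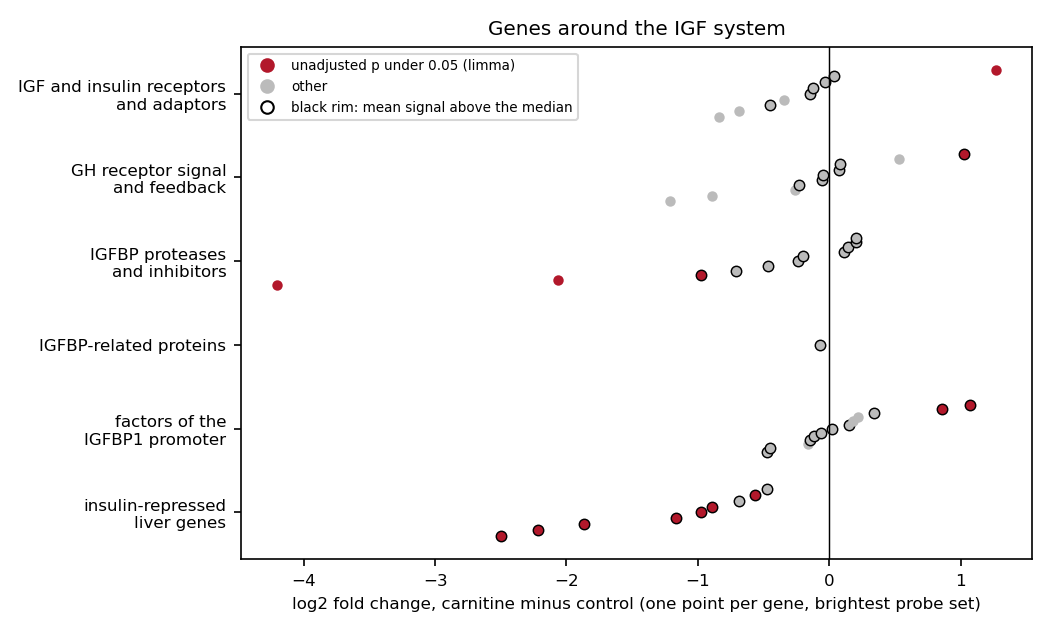
Log2 fold change of carnitine minus control for genes around the IGF system, with 1 point per gene (brightest probe set) in 6 lists, red where the unadjusted limma p is under 0.05 and with a black rim where the mean signal is above the median of all probe sets. The 9 measured genes of the list of insulin-repressed liver genes all lie left of 0, and the other lists have points on both sides, apart from the list with 1 gene.

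Other liver genes that insulin is known to repress, as it does IGFBP1, had lower signals with carnitine, but none passed the adjusted p. All 9 that were measured of 12 listed had a log2 fold change below 0 and pools that did not overlap. Lower without overlap were 20.4% of all probe sets, and 22.0% of those above the median signal, where all 9 lay. Of the 9, 7 reached an unadjusted p under 0.05, while 0 passed the adjusted p in limma. In that direction 3.93% of all probe sets, and 5.24% of those above the median signal, reached the unadjusted p. TAT, among the 7, is also among the hepatocyte markers. The median log2 fold change was -0.97, against -0.02 over all probe sets. The study chose several of these genes on the same samples, so that the count is not independent evidence of the direction. Of 4 red cell markers, 3 were also lower without overlap in the carnitine pools (median log2 fold change -1.01 over the 4). Among these, ALAS2 had 358 and 240 with carnitine, against 644 and 917 in control. HBB was the exception, at 310 and 299 with carnitine, against 278 and 301 in control. The part of the red cell markers in the result for the insulin-repressed genes was not tested. CCNG2, a cyclin and FOXO target, had 188 and 182 with carnitine, against 761 and 967 in control (limma log2 fold change -2.22 ± 0.25 SE with adjusted p = 0.174). SESN1, a sestrin of the stress response, had 858 and 665 with carnitine, against 1395 and 1578 in control (log2 fold change -0.97 ± 0.22 SE). KLF15, a transcription factor induced by fasting, had 1002 and 729 with carnitine, against 1590 and 1589 in control (log2 fold change -0.90). All 9 stayed below 0 when each pool was left out in turn. With all pools, 51.2% of all probe sets above the median signal were below 0.

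The profile of IGFBP1 over the 4 arrays was compared with those of 6050 probe sets above the median signal that have 1 symbol, by the Euclidean distance between log2 signals centred on each probe set's mean. The 5 nearest genes were CCNG2, ACVR1, KLF11, FBXO32 and GPAM. ACVR1, a receptor for bone morphogenetic proteins, had 669 and 440 with carnitine, against 2227 and 1715 in control. KLF11, a transcription factor, had 88.5 and 47.8 with carnitine, against 175 and 272 in control. FBXO32, an F-box protein of ubiquitin ligases, had 89.6 and 77.5 with carnitine, against 246 and 374 in control. GPAM, which starts glycerolipid synthesis, had 423 and 227 with carnitine, against 1008 and 767 in control. The log2 fold changes of the 5 lay between -2.22 and -1.51, all smaller in size than that of IGFBP1. In ACVR1, KLF11 and GPAM, as in IGFBP1, carnitine pool 2 was well below carnitine pool 1. The 5 were chosen for their likeness to IGFBP1, so that the shared direction follows from the choice. Only 4 arrays enter this likeness, which is a description and says nothing of shared control.

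**Figure D5:**
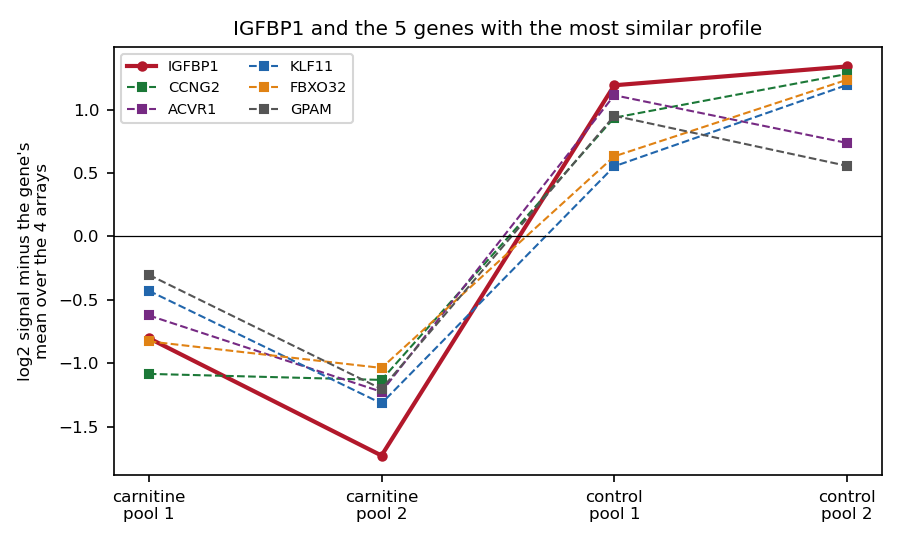
Log2 signal of IGFBP1 (red, solid) and of the 5 genes with the nearest profile (dashed) in the 4 pools, each centred on its own mean over the arrays, with lines that join the points of a gene. All 6 genes lie below 0 in both carnitine pools and above 0 in both control pools, which follows from the choice of the 5 by likeness. IGFBP1 has the lowest point, in carnitine pool 2.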

How the data were processed

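Software named in the submitters' processing notes is MAS5 5.0, GCOS 1.1.2 and Affymetrix Expression Console 1.1. The authors deposited MAS5 signal intensities on a linear scale, scaled to a common trimmed mean, for 24123 probe sets on 4 arrays. Detection calls were not used here. The 124 Affymetrix control probe sets were left out, and log2 signals with no pseudocount and no filter were fitted by lmFit and eBayes with a variance trend (limma 3.58.1, R 4.3.3) over 23999 probe sets, with 2 residual degrees of freedom. The script was tested on simulated data. Precision is limited by the number of arrays.

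Gene symbols are those of the platform annotation, possibly old: 10069 probe sets have 1 symbol, 198 several and 13732 none. No genome build is named, so that no coordinates are given. The members and the gene lists were chosen with earlier results of these data known. The text names every member, up to 4 genes per list with the smallest unadjusted p under 0.05, and the 5 profiles nearest to IGFBP1. IGF1R, STAT5B, JAK2, PLG, FOXO1, KLF15, LUM, COL1A2, ACTA2, SPP1 and ALAS2 were chosen after their values were seen. In each list a gene is represented by its brightest probe set, and 1 gene that the rule names is not reported here. The alternatives were other normalizations, floors, filters and variance models, a one-factor analysis, the replicate block, and leaving out each pool. Leaving out pools for the list counts was chosen after seeing the data.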

Additional observations from a re-analysis of the deposited data

How the results depend on the processing

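IGFBP1 kept its direction in all 13 alternatives, and its log2 fold change ranged from -2.99 to -2.07 when a pool was left out. Its adjusted p stayed above 0.05 in all but 1 of them. It lay between 0.0749 (probe sets above the median signal only) and 0.687 (one-factor analysis) with all pools, and between 0.0920 and 1.000 with a pool left out. The exception was the replicate block (log2 fold change -2.53, adjusted p = 0.000544 from limma), in which 106 probe sets passed in all. The labels do not say that a number marks a shared litter or day, and the deviations of same-numbered pools correlated at 0.003 across probe sets above the median signal, so that the numbers were not taken as pairs.

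The number of member probe sets at an unadjusted p lay between 2 and 6 when a pool was left out. Member probe sets at 2-fold or more numbered 2 with signals raised to the 25th percentile, 1 with an offset of 64, 1 above the median signal, and between 7 and 12 with a pool left out. Among all probe sets these settings gave 889, 265 and 438 at 2-fold, against 3828. The number past the adjusted p was 2 with the raised signals, 3 above the median signal, 0 without a variance trend, 0 in the one-factor analysis, and between 0 and 8 with a pool left out. The median change of IGFBP1 relative to IGFBP2 and the dim IGFBP5 and IGFBP6 was -2.61. That median is the value for IGFBP6, whose ratio was not read above because of its dim signals. The value for IGFBP2 was -2.34. The median was -0.96 when the mean over a gene's probe sets was taken, which brings in the dim IGFBP1 probe set. With a pool left out it lay between -3.72 and -1.54.

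Directions turned mostly in dim probe sets. That of IGFBP1 Ssc.451.1.S1_at was -0.26 with raised signals and -0.016 with the offset, and that of IGFBP6 Ssc.14062.2.S1_a_at was -0.15 and -0.015. With a pool left out, Ssc.451.1.S1_at ranged from -1.11 to 1.57, IGFBP5 from -1.06 to 2.02, IGFBP6 Ssc.14062.2.S1_a_at from -1.12 to 1.27, IGF1 Ssc.16231.2.A1_a_at from -2.50 to 0.16 and IGFALS Ssc.16015.1.S1_at from -1.13 to 0.26. Among IGF2 probe sets the ranges were -0.51 to 0.28 (Ssc.9365.5.S1_a_at), -0.0012 to 1.56 (Ssc.9365.6.A1_x_at), -1.43 to 0.053 (Ssc.9365.4.S1_a_at), -1.35 to 0.020 (Ssc.9365.6.A1_a_at) and -0.36 to 1.54 (Ssc.9365.7.A1_x_at). Other causes were not tested. With a pool left out, the lone pool of that diet is assumed to vary like the other diet.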
